A study of Mus musculus with 9 samples.

Results

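Thyroglobulin, the thyrotropin (TSH) receptor and iodotyrosine dehalogenase are encoded in the mouse by Tg, Tshr and Iyd. These 3 genes were chosen by gene symbol from the 33924 genes of a read count table of whole mouse thyroid, and all 3 were among the 17079 genes with enough counts to be tested. The table holds 9 RNA-seq libraries in 3 groups of 3. The libraries are labelled Arid2 KO, Smarcb1 KO and Wildtype, and are called Arid2-labelled, Smarcb1-labelled and wild type here. ARID2 and SMARCB1 proteins belong to the chromatin remodelling complex SWI/SNF, and the series title places their loss in thyroid tumour progression. All 9 libraries belong to the part of the series named NonBraf, without further detail of the Braf allele. The sources used here give no Cre driver, strain, age or sex, and no allele or treatment beyond these for any group. No label ties a library to its own animal, so the p-values describe spread between libraries. The technical part of that spread was not tested. Libraries within a group differed in markers of other tissues, and in the Smarcb1-labelled group also in sex-linked genes, as given below.

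Thyroid follicular cells build thyroid hormone on thyroglobulin, a very large secreted glycoprotein that is iodinated and stored in the follicle lumen. TSH from the pituitary acts through its receptor, a G protein-coupled receptor on the basolateral membrane whose main signal is cyclic AMP, and stimulates iodide uptake and hormone release. When stored thyroglobulin is taken up again and digested, the dehalogenase, a membrane flavoprotein, removes iodide from mono- and diiodotyrosine so that it can be used again. Loss of function of any of the 3 human genes is a known cause of congenital hypothyroidism in humans.

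The proximal promoter of Iyd is shown because Iyd was the member with an entry in the RefSeq promoter table used here (1 of 3 members matched). It is the stretch from 250 bases before to 50 bases after the annotated start, on the plus strand of chromosome 10 (chr10:3540024-3540323, GRCm38.p6), written 5′ to 3′. Capitals mark the letters CAAGTG, the core bound by the thyroid transcription factor NKX2-1, and TATAAA, the TATA box.
Iyd promoter: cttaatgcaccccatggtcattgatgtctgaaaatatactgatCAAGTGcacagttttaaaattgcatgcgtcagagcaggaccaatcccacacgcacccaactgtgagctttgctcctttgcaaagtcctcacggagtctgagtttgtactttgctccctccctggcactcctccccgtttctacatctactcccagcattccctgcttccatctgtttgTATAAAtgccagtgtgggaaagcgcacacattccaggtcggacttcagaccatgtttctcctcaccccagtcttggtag
The CAAGTG copy began 207 bases before the start, at position -207, and TATAAA began at -29. Of 32851 mouse promoter windows of this length, 13.6% held CAAGTG on either strand and 8.32% held TATAAA on the sense strand. The letters TGACGTCA, the full cyclic AMP response element (CRE), were not in the window, and 1.79% of windows held them. Its shorter form TGACG occurred once, on the minus strand at -181, in common with 20.8% of windows. These letter matches are a description of the window and say nothing about binding.

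Before the members were compared, the libraries were checked. Total counts were 61179297 to 89553766 in Arid2-labelled, 38644867 to 41362640 in Smarcb1-labelled and 33666251 to 34045321 in wild-type libraries. The follicular genes Pax8, Cdh16, Nkx2-1 and Foxe1 were read in all 9, so the tissue label fits its markers. The targeted genes did not settle the genotype labels. Arid2 had 94.5, 77.7 and 59.9 CPM (read counts scaled to library size with edgeR's TMM) in Arid2-labelled libraries, against 68.8, 74.9 and 67.8 CPM in wild-type libraries (log2 fold change 0.13, edgeR adjusted p = 0.745). Smarcb1 had 47.4, 53.7 and 59.4 CPM in Smarcb1-labelled libraries, against 65.8, 71.7 and 69.2 CPM in wild type (log2 fold change -0.36, edgeR adjusted p = 0.0651). Parathyroid marker genes summed to 10.6 to 1580 CPM in Arid2-labelled, 6088 to 16982 in Smarcb1-labelled and 8.15 to 4317 in wild-type libraries. Thymus markers were found in a pair of libraries, with a sum of 831 CPM in replicate 1 of the Arid2-labelled group and of 120 CPM in replicate 2 of the Smarcb1-labelled group, and at most 0.728 CPM elsewhere. Smarcb1-labelled replicate 3 stood apart in another way: Xist, the RNA of the inactive X chromosome, had 808 CPM there and at most 2.59 CPM elsewhere, while the Y-linked Ddx3y had 0 there and 43.4 to 110 CPM elsewhere.

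Tg, Tshr and Iyd lay far apart in abundance. Per transcript length, as TPM (counts per base of the longest coding transcript, scaled to a fixed total), Tg averaged 96580 ± 15208 in Arid2-labelled, 91486 ± 13789 in Smarcb1-labelled and 97809 ± 15646 in wild-type libraries (SD, n = 3 each). In every library it ranked first among the genes with a matched length, 91.4% of those in the table, the set used for all ranks here. Iyd averaged 1244 ± 48.4 TPM in Arid2-labelled, 1586 ± 214 TPM in Smarcb1-labelled and 1463 ± 135 TPM in wild-type libraries and ranked between 23 and 58. Tshr, a receptor gene of modest abundance, averaged 35.2 ± 1.73 TPM in Arid2-labelled, 61.3 ± 21.9 TPM in Smarcb1-labelled and 51.9 ± 4.56 TPM in wild-type libraries and ranked between 2022 and 5287. The order Tg, Iyd, Tshr held in all 9 libraries, and no library of one gene came near the level of the next.

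The hormone precursor came first. Tg took 25.6%, 30.4% and 24.8% of all counts in the Arid2-labelled libraries, 24.4%, 24.1% and 28.7% in the Smarcb1-labelled libraries and 30.8%, 27.0% and 24.5% in the wild-type libraries. The 95% Wilson interval of such a share is at most 0.0155 percentage points to either side, for counting error only, so nearly all of this spread lies between libraries rather than in depth. In CPM, Tg stood at 252289, 321081 and 243167 in Arid2-labelled, 247322, 225582 and 300396 in Smarcb1-labelled and 317823, 258529 and 244862 in wild-type libraries. The 3 groups overlapped throughout.

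Of the 3 genes, the receptor gene had the group means farthest apart in proportion. Tshr stood at 48.8, 48.6 and 54.5 CPM in Arid2-labelled, 121, 91.9 and 52.7 CPM in Smarcb1-labelled and 77.6, 75.5 and 69.0 CPM in wild-type libraries. All 3 Arid2-labelled libraries lay below all 3 wild-type libraries. The Smarcb1-labelled group held both the highest library of the series and one within the range of the Arid2-labelled group. The latter was replicate 3, which stood apart in Xist and Ddx3y. The coefficient of variation of the Smarcb1-labelled group was 38.9%, against 6.61% in Arid2-labelled and 6.06% in wild-type libraries. Tshr was read with 1947 to 4770 counts per library, so that counting error alone is 1.45% to 2.27% and cannot make up that spread.

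Iyd had a narrower range. It stood at 668, 645 and 651 CPM in Arid2-labelled, 1021, 755 and 741 CPM in Smarcb1-labelled and 808, 778 and 710 CPM in wild-type libraries. The Arid2-labelled libraries lay close together and below every library of the other groups. Smarcb1-labelled replicate 1 was the highest library for Iyd and for Tshr, and it also had the highest parathyroid marker sum.

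**Figure D1:**
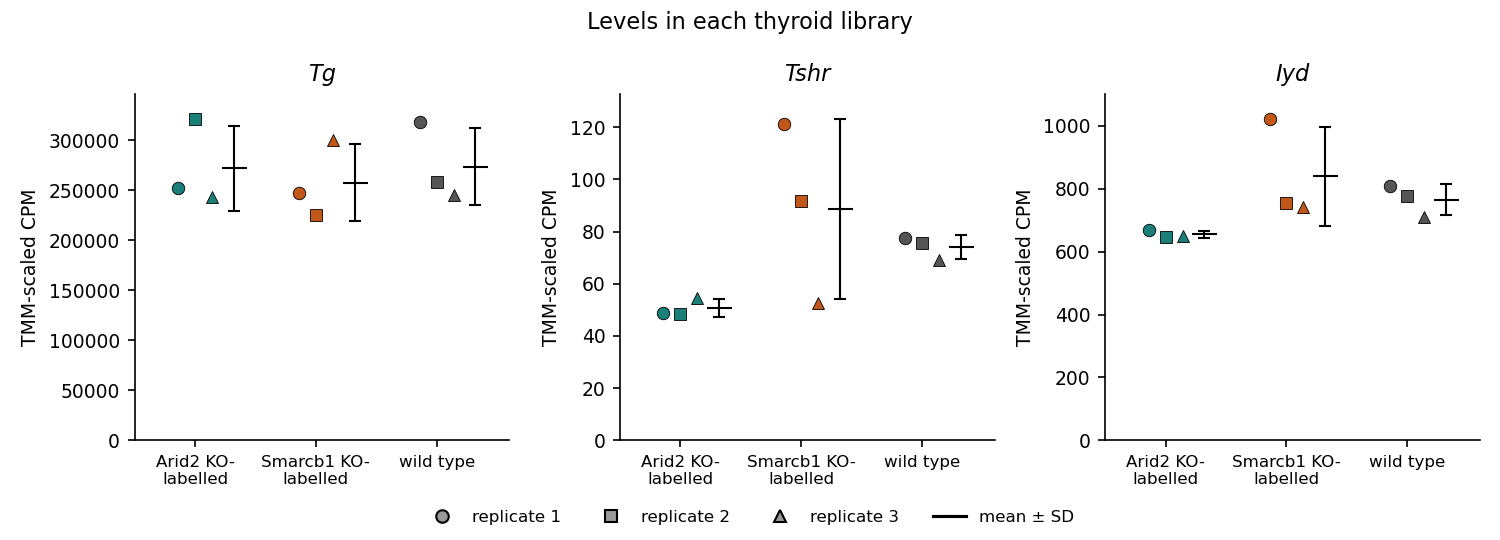
TMM-scaled CPM of Tg, Tshr and Iyd in each library (points) with the mean and SD of each group of 3 (bars). Tshr lies at 48.6 to 54.5 CPM in Arid2-labelled and 69.0 to 77.6 CPM in wild-type libraries, and Smarcb1-labelled libraries span 52.7 to 121 CPM, while Tg overlaps in all groups.

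The first comparison asks how the genes differ between Arid2-labelled and wild-type thyroid. No member passed edgeR's quasi-likelihood test at an adjusted p under 0.05 (Benjamini-Hochberg, over 17079 genes), where 0.556% of all genes did. Tshr had a log2 fold change of -0.55 (SE 0.24, 95% interval -1.10 to 0.0032) with an unadjusted p of 0.0511 and an adjusted p of 0.339 by edgeR. Iyd had -0.22 (SE 0.14, interval -0.55 to 0.10, edgeR adjusted p = 0.511), and Tg had -0.0082 (SE 0.29, interval -0.67 to 0.65, edgeR adjusted p = 0.994). In whole tissue, fewer cells of a type and less RNA per cell cannot be told apart. Tshr and Iyd were lower in Arid2-labelled than wild type with no overlap of the libraries, as were 12.6% of all genes. The median log2 fold change of the 3 members was -0.22, against 0.017 over all genes. With only the 6 libraries of this comparison in the fit, Tshr reached an adjusted p of 0.0436 by edgeR, with the same log2 fold change of -0.55. Over the other settings and each library left out in turn its adjusted p was 0.119 or more.

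Arid2-labelled and wild-type groups each hold a library almost without parathyroid RNA, in which Pth, the parathyroid hormone gene, had 0.128 and 0.0296 CPM and the parathyroid factor gene Gcm2 had 0, while the calcium receptor gene Casr had 10.5 and 8.12 CPM. Tshr had 54.5 CPM in that Arid2-labelled library and 69.0 CPM in that wild-type library. Iyd had 651 CPM in the first of these and 710 CPM in the second. This is a single pair of libraries, with no test. Skeletal muscle markers summed to 375 to 1633 CPM in Arid2-labelled and 16.8 to 968 CPM in wild-type libraries, and endothelial markers to 488 to 576 CPM in Arid2-labelled and 275 to 379 CPM in wild-type libraries. Airway markers summed to 22.5 to 60.2 CPM in Arid2-labelled and 0.606 to 1.19 CPM in wild-type libraries. Fibroblast markers summed to 1619 to 1958 CPM in Arid2-labelled and 2040 to 2288 CPM in wild-type libraries. Of these, airway, endothelial and fibroblast sums did not overlap between the groups. The part of these other tissues in the Tshr and Iyd values was not tested.

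Between Smarcb1-labelled and wild-type thyroid, no member passed either, where 7.90% of all genes did by the same edgeR test. The log2 fold changes were 0.26 for Tshr (SE 0.24, interval -0.29 to 0.81, edgeR adjusted p = 0.508), 0.13 for Iyd (SE 0.14, interval -0.19 to 0.46, edgeR adjusted p = 0.572) and -0.087 for Tg (SE 0.29, interval -0.75 to 0.57, edgeR adjusted p = 0.869). All 3 genes overlapped between the groups, whereas 33.7% of all genes did not overlap. Their median was 0.13, against 0.052 over all genes. The Tshr value depended on single libraries: it was -0.037 without Smarcb1-labelled replicate 1 and 0.52 without Smarcb1-labelled replicate 3 (edgeR adjusted p = 0.935 and 0.0948). Without replicate 1, Iyd stood at -0.034. Erythroid markers summed to 94.1 to 184 CPM in Smarcb1-labelled and 289 to 1393 CPM in wild-type libraries, and parathyroid markers to 6088 to 16982 CPM in Smarcb1-labelled and 8.15 to 4317 CPM in wild-type libraries, each with no overlap. Fibroblast marker sums, at 1503 to 2103 CPM in Smarcb1-labelled and 2040 to 2288 CPM in wild-type libraries, overlapped. Of these markers, Col1a1 (-1.06, edgeR adjusted p = 0.0159) and Col3a1 (-0.55, edgeR adjusted p = 0.0518) were lower with no overlap. Pdgfra, Dcn and Lum overlapped. The part of these cells in the member values was not tested. A fit with a parathyroid covariate cannot decide it, since those markers were higher in every Smarcb1-labelled library than in any wild-type library.

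The third comparison sets the Smarcb1-labelled against the Arid2-labelled libraries and does not use wild type as its baseline, though it shares libraries with both comparisons above, which also share the wild-type libraries with each other. Tshr had 121, 91.9 and 52.7 CPM in Smarcb1-labelled and 48.8, 48.6 and 54.5 CPM in Arid2-labelled libraries, a log2 fold change of 0.81 (SE 0.25, interval 0.25 to 1.36). Its edgeR p was 0.00909 unadjusted and 0.0528 adjusted, just outside the threshold of 0.05. Iyd had a log2 fold change of 0.36 (SE 0.14, interval 0.033 to 0.68, edgeR adjusted p = 0.111), and every Smarcb1-labelled library lay above every Arid2-labelled one, as for 18.3% of all genes. Tg had -0.078 (SE 0.29, interval -0.74 to 0.58, edgeR adjusted p = 0.866). So 0 of the 3 members passed, where 16.3% of all genes did. The median of the members was 0.36, against 0.0030 over all genes. The marker sums of other cell types that did not overlap between these groups were those of parathyroid (6088 to 16982 CPM in Smarcb1-labelled, 10.6 to 1580 in Arid2-labelled), erythroid (94.1 to 184 in Smarcb1-labelled, 250.2 to 651 in Arid2-labelled), brown fat (42.4 to 209 in Smarcb1-labelled, 292 to 642 in Arid2-labelled) and airway markers (0.487 to 4.61 in Smarcb1-labelled, 22.5 to 60.2 in Arid2-labelled). Fibroblast sums overlapped (1503 to 2103 in Smarcb1-labelled, 1619 to 1958 in Arid2-labelled), but each of the 5 fibroblast markers did not. Pdgfra, Dcn and Lum were higher in Smarcb1-labelled (0.59, 0.67 and 1.31), and Col1a1 and Col3a1 were lower (-0.91 and -0.53). Their edgeR adjusted p ran from 0.0114 (Lum) to 0.0585 (Dcn). The part of these other cells in the member values was not tested. The parathyroid covariate cannot decide it, since its markers do not overlap between these groups.

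The Tshr difference between the Smarcb1-labelled and Arid2-labelled groups moved with the settings. It passed with DESeq2's Wald test (0.81, adjusted p = 0.0105) and with a filter of at least 1 CPM in 3 libraries (0.81, edgeR adjusted p = 0.0493). Without Smarcb1-labelled replicate 3 it was 1.07 (edgeR adjusted p = 0.0132), and without replicate 1 it was 0.51 (edgeR adjusted p = 0.163). With the GC content trend taken out of every library it was 0.58 (edgeR adjusted p = 0.173), and with a parathyroid marker covariate 0.80 (edgeR adjusted p = 0.226). In comparisons of the Smarcb1-labelled group, parathyroid content runs with the label. A call lost with this covariate cannot be assigned to either. Iyd was 0.090 after the GC trend was removed (edgeR adjusted p = 0.656). Their transcripts hold 46.7% (Tshr) and 45.7% (Iyd) GC, against 52.2% for Tg. The part of GC content in these values was not tested further. Over the 9 tests of the 3 members edgeR called 0, with 2 at an unadjusted p under 0.05 (Tshr and Iyd in this comparison, where 35.8% of all genes had such a p), DESeq2 called 1 and limma-voom called 0.

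**Figure D2:**
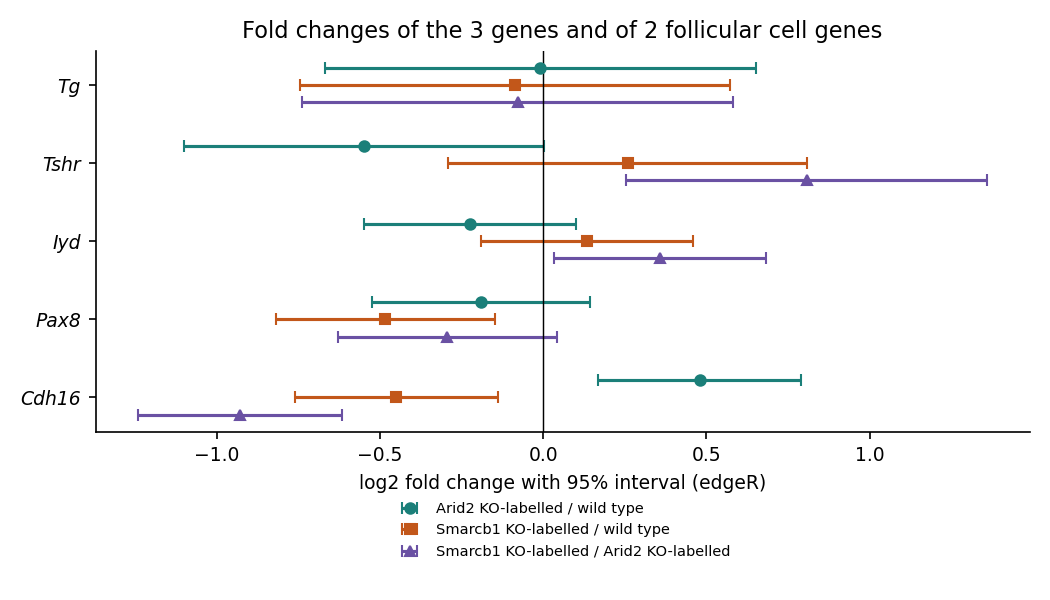
Log2 fold change (points) with 95% interval (bars) from the edgeR fit for Tg, Tshr, Iyd and the follicular genes Pax8 and Cdh16 in 3 comparisons. The Tshr interval runs from -1.10 to 0.0032 in Arid2-labelled against wild type and from 0.25 to 1.36 in Smarcb1-labelled against Arid2-labelled, and the Tg intervals span 0 in each.

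Ratios of counts inside a library need no scaling between libraries. Tg counts per Tshr count were 5168, 6610 and 4463 in Arid2-labelled, 2039, 2456 and 5704 in Smarcb1-labelled and 4094, 3425 and 3548 in wild-type libraries. Every Arid2-labelled ratio lay above every wild-type ratio, with a log2 difference of 0.54 (exact two-sided permutation p = 0.1, adjusted 0.45 over 9 tests, n = 3 against 3). That is the smallest p this design can give. Iyd counts per Tshr count were 13.7, 13.3 and 11.95 in Arid2-labelled, 8.42, 8.22 and 14.1 in Smarcb1-labelled and 10.4, 10.3 and 10.3 in wild-type libraries.

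The mean was 13.0 ± 0.907 in Arid2-labelled, 10.2 ± 3.32 in Smarcb1-labelled and 10.3 ± 0.0610 in wild-type libraries (SD, n = 3 each). The balance of dehalogenase to receptor RNA was thus nearly the same in the 3 wild-type libraries, all Arid2-labelled libraries lay above these, and the Smarcb1-labelled libraries fell on both sides. On the log2 scale Tshr over Iyd differed by -0.33 between Arid2-labelled and wild type with no overlap (exact two-sided permutation p = 0.1, adjusted 0.45). It differed by 0.060 between Smarcb1-labelled and wild type (exact permutation p = 1), and by 0.39 between Smarcb1-labelled and Arid2-labelled (exact permutation p = 0.4). Tg counts per Iyd count ranged from 373 to 498 in Arid2-labelled, 242 to 406 in Smarcb1-labelled and 332 to 394 in wild-type libraries, overlapping in every comparison.

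**Figure D3:**
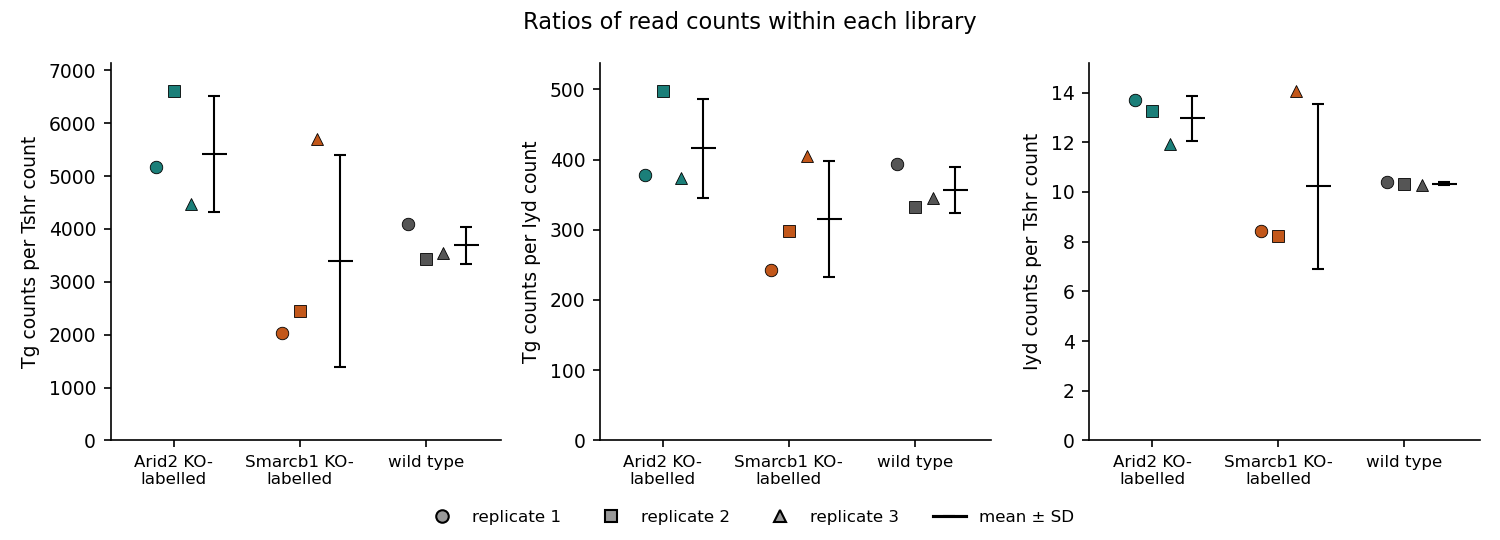
Ratios of raw counts within each library for Tg per Tshr, Tg per Iyd and Iyd per Tshr, with points for libraries and bars for the mean and SD of 3. Iyd per Tshr is 11.95 to 13.7 in Arid2-labelled, 8.22 to 14.1 in Smarcb1-labelled and 10.3 to 10.4 in wild-type libraries.

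The members were also set against Pax8, a transcription factor gene of the follicular lineage. Pax8 itself had 322, 383 and 445 CPM in Arid2-labelled, 304, 307 and 327 CPM in Smarcb1-labelled and 490, 451 and 370 CPM in wild-type libraries (log2 fold change -0.48 for Smarcb1-labelled over wild type, edgeR adjusted p = 0.0763). Iyd counts per Pax8 count were 2.08, 1.68 and 1.46 in Arid2-labelled, 3.36, 2.46 and 2.27 in Smarcb1-labelled and 1.65, 1.72 and 1.92 in wild-type libraries. All Smarcb1-labelled ratios lay above those of both other groups. The log2 difference was 0.59 against wild type and 0.62 against Arid2-labelled (exact two-sided permutation p = 0.1, adjusted 0.18 over 9 tests, in each). Iyd itself had 0.13 and 0.36 in these comparisons and Pax8 had -0.48 and -0.29, so the ratios also carry the differences of Pax8.

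Tshr counts per Pax8 count were 0.152, 0.127 and 0.122 in Arid2-labelled, 0.400, 0.299 and 0.161 in Smarcb1-labelled and 0.158, 0.167 and 0.187 in wild-type libraries. The Arid2-labelled ratios lay below wild type, with a log2 difference of -0.36, and the Smarcb1-labelled ratios lay above Arid2-labelled by 1.01 (exact two-sided permutation p = 0.1, adjusted 0.18, in each). Tg counts per Pax8 count were 784, 838 and 546 in Arid2-labelled, 815, 734 and 919 in Smarcb1-labelled and 648, 573 and 662 in wild-type libraries. The Smarcb1-labelled ratios were higher than wild type with no overlap, by 0.39 (exact permutation p = 0.1, adjusted 0.18). Tg itself had -0.087 there and Pax8 had -0.48, so this ratio also carries the difference of Pax8.

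The choice of the follicular gene moved the comparisons that involve the Arid2-labelled group. Cdh16, a cadherin gene, averaged 854 ± 83.1 CPM in Arid2-labelled, 449 ± 62.5 CPM in Smarcb1-labelled and 612.5 ± 37.6 CPM in wild-type libraries (SD, n = 3 each). Cdh16 itself had a log2 fold change of 0.48 in Arid2-labelled over wild type with no overlap (edgeR adjusted p = 0.152). In Smarcb1-labelled over Arid2-labelled it had -0.93 with no overlap (edgeR adjusted p = 0.00726). With the GC trend removed or the parathyroid covariate it was -0.60 or -0.90 (edgeR adjusted p = 0.0653 and 0.0610). Tg itself had -0.0082 and -0.078 in these comparisons, so the ratios also carry the differences of Cdh16. Set against Cdh16 in place of Pax8, the Arid2-labelled to wild-type log2 difference was -1.03 for Tshr, -0.70 for Iyd and -0.49 for Tg, each with no overlap (exact two-sided permutation p = 0.1, adjusted 0.1125). With Pax8 the Iyd value was -0.030 and the Tg value was 0.18. In Smarcb1-labelled against Arid2-labelled, the log2 differences with Cdh16 were 1.66 for Tshr, 1.28 for Iyd and 0.86 for Tg with no overlap, against 1.01, 0.62 and 0.20 with Pax8, where Tg overlapped. In Smarcb1-labelled against wild type, Cdh16 had -0.45 with no overlap (edgeR adjusted p = 0.0753) and Pax8 had -0.48. The log2 differences there were 0.64 for Tshr, 0.58 for Iyd and 0.37 for Tg with Cdh16. With Pax8 they were 0.65, 0.59 and 0.39. These ratios thus also carry the lower values of Cdh16 and Pax8.

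**Figure D4:**
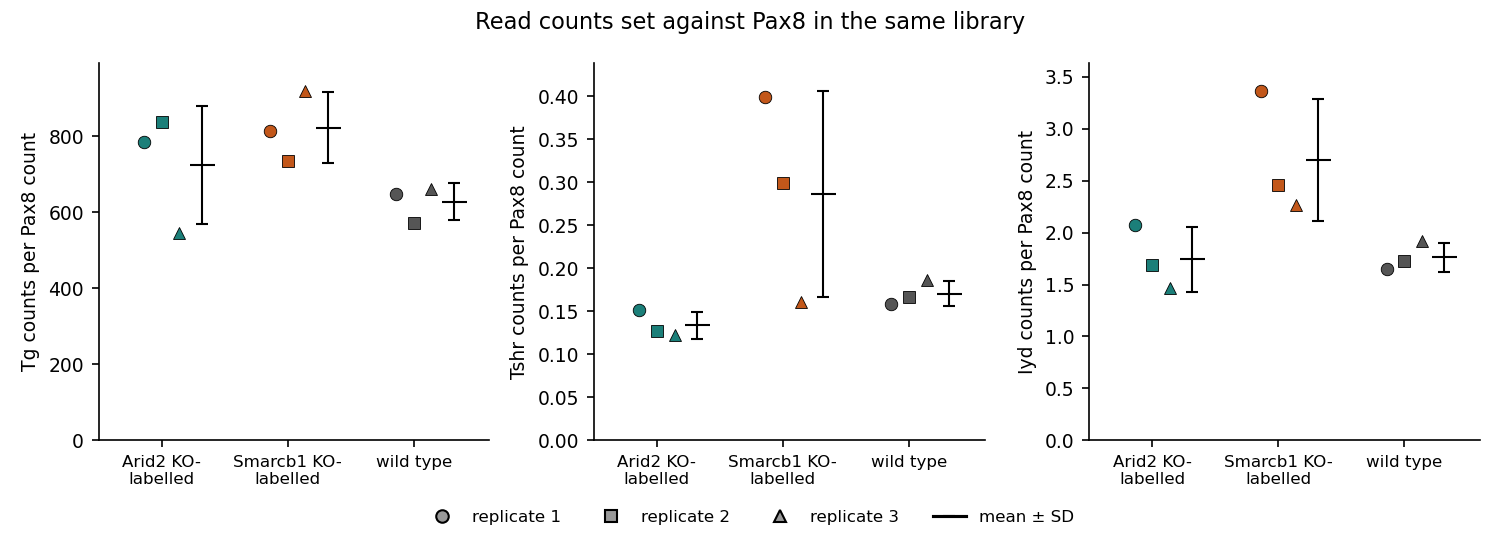
Counts of Tg, Tshr and Iyd per Pax8 count in each library (points) with mean and SD of each group of 3 (bars). Iyd per Pax8 is 2.27 to 3.36 in Smarcb1-labelled, 1.46 to 2.08 in Arid2-labelled and 1.65 to 1.92 in wild-type libraries.

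The list of thyroid hormone production held 23 genes, Tg, Tshr and Iyd among them, of which 22 were tested (Slc26a4, the pendrin gene, had 1 to 27 counts per library and was not). In Arid2-labelled against wild type, 0 were higher and 1 lower by edgeR (0.234% and 0.322% of all genes), with a median log2 fold change of -0.19, against 0.017 over all genes. The lower gene was Duoxa1, which encodes a maturation factor of dual oxidases, enzymes that make hydrogen peroxide. Among the other dual oxidase genes, Duox1 had -1.80, Duox2 0.053 and Duoxa2 0.24 (edgeR adjusted p = 0.1475, 0.917 and 0.590). Duoxa1 had 2.39, 2.94 and 3.56 CPM in Arid2-labelled and 11.7, 19.3 and 22.1 CPM in wild-type libraries (log2 fold change -2.58, SE 0.38, edgeR adjusted p = 0.0269). The call was lost when any of these 6 libraries was left out, with edgeR adjusted p from 0.0530 (wild-type replicate 1) to 0.123 (Arid2-labelled replicate 2).

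In Smarcb1-labelled against wild type, 1 of the 22 was higher and 0 lower by edgeR (2.15% and 5.74% of all genes), with a median of -0.18 against 0.052 over all genes. The higher gene was Lrp2, which encodes megalin, an endocytic receptor that binds thyroglobulin. It had 257, 178 and 251 CPM in Smarcb1-labelled and 143, 160 and 115 CPM in wild-type libraries (0.72, SE 0.17, edgeR adjusted p = 0.0386). The call held when Smarcb1-labelled replicate 2 was left out and was lost without any other single library, with edgeR adjusted p from 0.0562 (Arid2-labelled replicate 1) to 0.124 (Smarcb1-labelled replicate 3). It was also lost with the GC trend removed (0.59, edgeR adjusted p = 0.0952) and with the parathyroid covariate (0.51, edgeR adjusted p = 0.200).

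In Smarcb1-labelled against Arid2-labelled, 2 were higher and 0 lower by edgeR (6.95% and 9.32% of all genes), with a median of 0.15 against 0.0030 over all genes. Lrp2 had a log2 fold change of 0.94 (SE 0.17, edgeR adjusted p = 0.0130, and 0.0635 without Arid2-labelled replicate 3). Duoxa1 had 1.98 (SE 0.37, edgeR adjusted p = 0.0141), with 0.0522 and 0.0543 without Arid2-labelled replicates 2 and 3. With the parathyroid covariate neither passed: Lrp2 had 0.71 (edgeR adjusted p = 0.104) and Duoxa1 had 2.25 (edgeR adjusted p = 0.0670). The iodide transporter gene Slc5a5 had 386, 461 and 113 CPM in Smarcb1-labelled, 105, 143 and 134 CPM in Arid2-labelled and 389, 533 and 478 CPM in wild-type libraries. As for Tshr, Smarcb1-labelled replicate 3 was the lowest of its group. This is the library that stood apart in Xist and Ddx3y, and the part of that difference in its Tshr and Slc5a5 values was not tested.

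**Figure D5:**
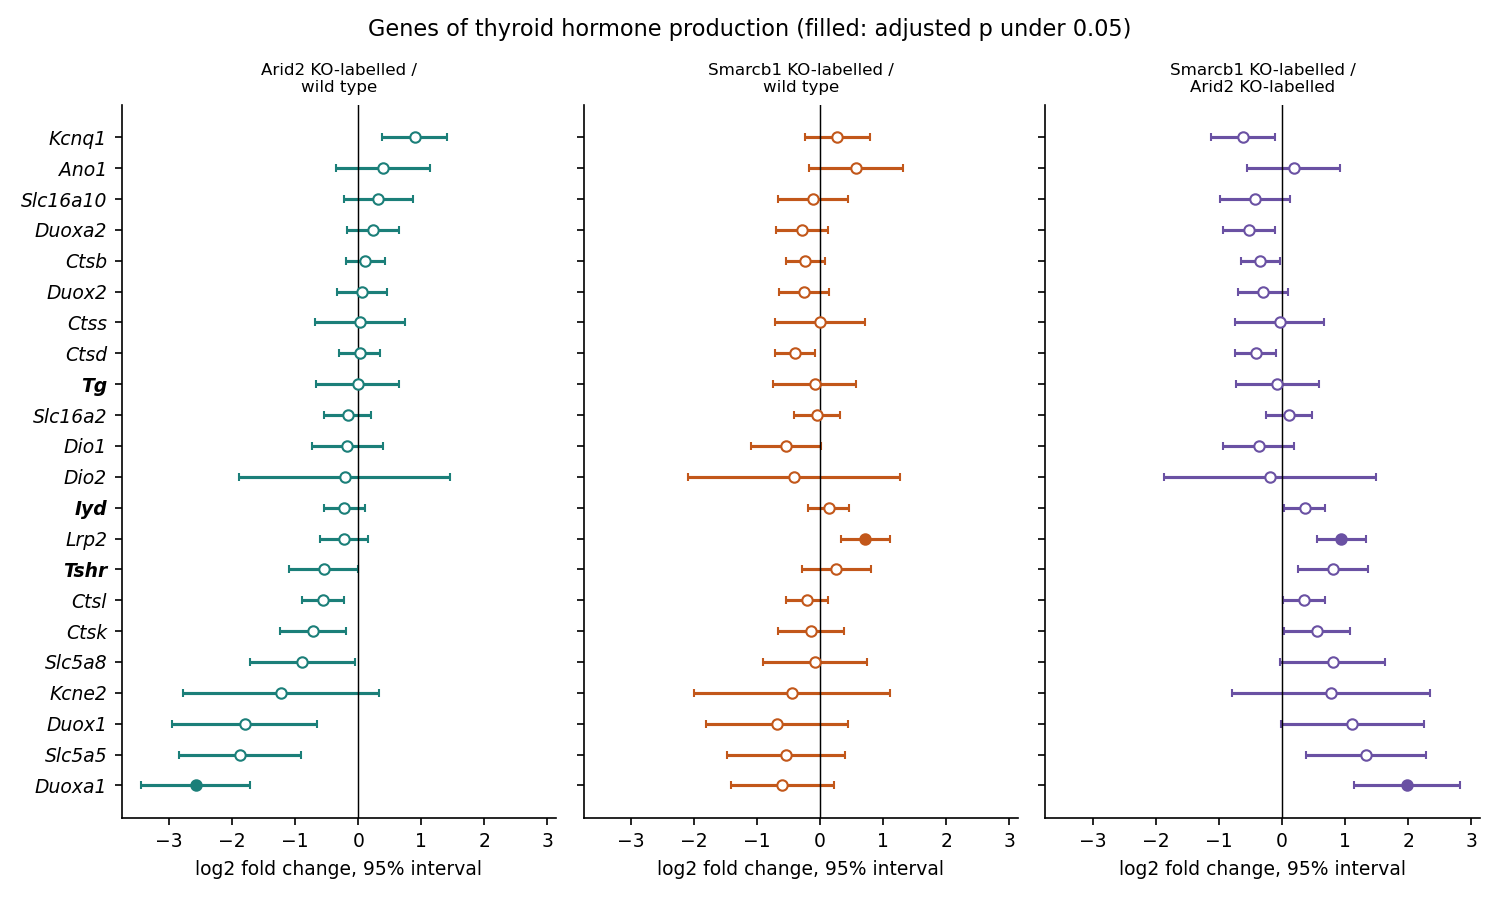
Log2 fold change with 95% interval for the 22 tested genes of thyroid hormone production in 3 comparisons, ordered by the first, with filled points at an edgeR adjusted p under 0.05. Duoxa1 is filled at -2.58 in Arid2-labelled against wild type, Lrp2 at 0.72 in Smarcb1-labelled against wild type, and both in Smarcb1-labelled against Arid2-labelled, while Tg, Tshr and Iyd (bold) are open throughout.

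For TSH receptor signalling, 25 genes were listed, Tshr itself among them, and all were tested. In Arid2-labelled against wild type edgeR called 0 in either direction, where 0.556% of all genes were called. At an unadjusted p under 0.05, 2 were higher and 0 lower (14.9% of all genes in either direction). The list median was -0.0061, against 0.017 over all genes. In Smarcb1-labelled against wild type 2 were higher and 0 lower by edgeR (2.15% and 5.74% of all genes), with a median of 0.21, against 0.052 over all genes. Pde4b, a phosphodiesterase that breaks down cyclic AMP, had 15.6, 20.1 and 15.4 CPM in Smarcb1-labelled and 8.19, 7.05 and 5.90 CPM in wild-type libraries (1.27, SE 0.20, edgeR adjusted p = 0.0103). This call held with each library left out, but not with the GC trend removed (1.05, edgeR adjusted p = 0.0514) or with the parathyroid covariate (1.15, edgeR adjusted p = 0.0713). Plcb1, a phospholipase C of the Gq branch, had a log2 fold change of 0.78 (SE 0.15, edgeR adjusted p = 0.0204), with 0.0736, 0.0797 and 0.0653 without Smarcb1-labelled replicate 3, wild-type replicate 1 and wild-type replicate 2. It did not pass with the GC trend removed (0.52, edgeR adjusted p = 0.113) or with the parathyroid covariate (0.82, edgeR adjusted p = 0.0956).

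In Smarcb1-labelled against Arid2-labelled, 5 of the 25 were higher and 0 lower by edgeR (6.95% and 9.32% of all genes), with a median of 0.13, against 0.0030 over all genes. They were Crem, a cyclic AMP-responsive transcription factor gene (0.74, adjusted p = 0.0222), the protein kinase A regulatory subunit genes Prkar1a (0.42, adjusted p = 0.0236) and Prkar2a (0.36, adjusted p = 0.0288), Pde4b (0.82, adjusted p = 0.0277) and Plcb1 (0.61, adjusted p = 0.0292). None of the 5 passed after the GC trend was removed, with edgeR adjusted p from 0.109 (Crem) to 0.223 (Prkar1a) and log2 fold changes of 0.38 for Crem, 0.16 for Prkar1a, 0.22 for Prkar2a, 0.59 for Pde4b and 0.32 for Plcb1. With the parathyroid covariate none passed either, with edgeR adjusted p from 0.132 (Crem) to 0.191 (Pde4b), while the log2 fold changes were 0.72 for Crem, 0.37 for Prkar1a, 0.35 for Prkar2a, 0.68 for Pde4b and 0.65 for Plcb1. Each was also lost without Arid2-labelled replicate 2, Arid2-labelled replicate 3 or Smarcb1-labelled replicate 3. Without these, edgeR adjusted p was 0.0594 (Prkar2a) to 0.0853 (Pde4b), 0.0889 (Crem) to 0.117 (Prkar2a), and 0.0539 (Crem) to 0.0919 (Plcb1), in the order named. Smarcb1-labelled replicate 1 also ended the calls of Pde4b, Crem and Prkar2a (edgeR adjusted p = 0.0567, 0.0646 and 0.0600 without it), and Arid2-labelled replicate 1 those of Plcb1 and Prkar2a (0.0588 and 0.0781). Prkar2a was also lost without wild-type replicate 1 (0.0536).

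The hormones that bind this receptor family are pituitary products for the most part, and their genes were close to absent. Tshb, the TSH beta subunit gene, had 0 to 4 counts per library and Cga, the shared alpha subunit gene, 0 to 1. Gpha2 and Gphb5, which encode thyrostimulin, had 0 to 7 and 0 to 2 counts. Of the related receptors, Lhcgr had 0 to 6 counts and Fshr had 0 in all libraries. Tshr was the 1 of these 7 genes with enough counts for a test.

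Of the 5 thyroid transcription factor genes listed, 0 passed in Arid2-labelled against wild type by edgeR, where 0.556% of all genes did. At an unadjusted p under 0.05, 0 were higher and 1 lower (14.9% of all genes in either direction). The list median was -0.19, against 0.017 over all genes. In Smarcb1-labelled against wild type 7.90% of all genes passed, and 16.3% did against Arid2-labelled. Foxe1, a forkhead factor of thyroid development, was the 1 listed gene that passed in these comparisons. It had 44.7, 61.8 and 50.8 CPM in Smarcb1-labelled, 118, 147 and 173 CPM in Arid2-labelled and 240, 278 and 201 CPM in wild-type libraries. It fell by 2.19 on the log2 scale in Smarcb1-labelled against wild type (SE 0.19, edgeR adjusted p = 0.00102) and by 1.48 against Arid2-labelled (SE 0.19, edgeR adjusted p = 0.00470). Both calls held with every library left out in turn. With the GC trend removed the values were -1.31 and -0.67, with edgeR adjusted p = 0.00168 and 0.0140. In Arid2-labelled against wild type Foxe1 had a log2 fold change of -0.72 with no overlap (edgeR adjusted p = 0.122), and with the GC trend removed it passed there at -0.64 (edgeR adjusted p = 0.0372). The list medians were -0.44 in Smarcb1-labelled against wild type and -0.19 against Arid2-labelled, where those over all genes were 0.052 and 0.0030.

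Thyroglobulin is folded in the endoplasmic reticulum, and 19 genes of its folding and export were listed. By edgeR 0 passed in any of the 3 comparisons, where 0.556%, 7.90% and 16.3% of all genes did, in the order that follows. At an unadjusted p under 0.05, 0 were higher and 3 lower in Arid2-labelled against wild type, 1 and 1 in Smarcb1-labelled against wild type, and 3 and 1 in Smarcb1-labelled against Arid2-labelled. Over all genes, in either direction, 14.9%, 28.4% and 35.8% had such a p in these comparisons. The medians of the list were -0.15, -0.044 and 0.15 in that order.

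The dehalogenase needs a flavin cofactor, and 5 of 6 listed genes of flavin supply and flavin-linked reduction were in the table. In Arid2-labelled against wild type 0 passed by edgeR (0.556% of all genes did), also with 0 at an unadjusted p under 0.05 (14.9% of all genes). In Smarcb1-labelled against wild type 0 were higher and 1 lower by edgeR (2.15% and 5.74% of all genes). Smarcb1-labelled against Arid2-labelled had 1 higher and 2 lower (6.95% and 9.32% of all genes). The list medians were 0.024, -0.32 and -0.41 in that order, against 0.017, 0.052 and 0.0030 over all genes. Gpr172b, the table's name for the riboflavin transporter gene Slc52a2, fell by 0.96 on the log2 scale in Smarcb1-labelled against wild type (edgeR adjusted p = 0.0139, and 0.0506 without wild-type replicate 1), and with the parathyroid covariate it was -0.90 (edgeR adjusted p = 0.0801). Against Arid2-labelled it fell by 0.79 (edgeR adjusted p = 0.0185), a call lost without Smarcb1-labelled replicate 3 or Arid2-labelled replicates 2 or 3 (edgeR adjusted p from 0.0511 to 0.0790) and with the parathyroid covariate (-0.72, edgeR adjusted p = 0.133). In the same comparison Por, the cytochrome P450 reductase gene, fell by 0.93 (edgeR adjusted p = 0.0124, and 0.0571 without Arid2-labelled replicate 3). It was -0.49 with the GC trend removed (edgeR adjusted p = 0.0569) and -0.82 with the parathyroid covariate (edgeR adjusted p = 0.0976). Rfk, the riboflavin kinase gene, was higher by 0.43 (edgeR adjusted p = 0.0431), a call that held when Smarcb1-labelled replicate 2 was left out and was lost without any other single library. The edgeR adjusted p of Rfk then ran from 0.0517 (wild-type replicate 3) to 0.124 (Arid2-labelled replicate 3). It was 0.15 with the GC trend removed (edgeR adjusted p = 0.314) and 0.49 with the parathyroid covariate (edgeR adjusted p = 0.145).

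In the annotation used for names, Sla and Gm17140 overlap Tg on the opposite strand on chromosome 15. Without a stated strand setting, reads in sequence shared with Tg cannot be told apart by strand. For 10000 Tg counts, Sla had 1.15 to 3.92 counts, the highest in Arid2-labelled replicate 1, a library with thymus markers. Next to Tshr on chromosome 12 lie Cep128, listed as 4930534B04Rik, and Gtf2a1, which encodes a general transcription factor subunit. Gtf2a1 had 69.5, 61.1 and 47.4 CPM in Smarcb1-labelled, 28.2, 28.7 and 23.9 CPM in Arid2-labelled and 43.0, 52.1 and 45.3 CPM in wild-type libraries. Its log2 fold change in Smarcb1-labelled against Arid2-labelled was 1.14 (SE 0.15, edgeR adjusted p = 0.00543), and the call held with every library left out. It also held with the GC trend removed (0.73, edgeR adjusted p = 0.0238), and with the parathyroid covariate the value was 1.01 (edgeR adjusted p = 0.0513). In Arid2-labelled against wild type it was -0.80 (edgeR adjusted p = 0.0584). It passed there without Smarcb1-labelled replicate 1 (0.0479), without Smarcb1-labelled replicate 3 (0.0404) and with the GC trend removed (-0.72, edgeR adjusted p = 0.0494). Like Tshr, Gtf2a1 had all Arid2-labelled libraries below all wild-type libraries, as did 12.6% of all genes, and Smarcb1-labelled replicate 1 highest. The other Tshr neighbour went the opposite way: 4930534B04Rik was higher in Arid2-labelled than wild type with no overlap (1.36, edgeR adjusted p = 0.0768). It passed there without Smarcb1-labelled replicate 1 (edgeR adjusted p = 0.0478) and without Smarcb1-labelled replicate 3 (edgeR adjusted p = 0.0381). Beside Tg, the genes Sla, Phf20l1 and Wisp1 did not pass in Smarcb1-labelled against Arid2-labelled (edgeR adjusted p = 0.770, 0.124 and 0.118). In that comparison 16.3% of all genes passed, and the other genes beside the members that did so are given with their stability. They were 4930534B04Rik (-1.04, edgeR adjusted p = 0.0393), Gm17140 (1.12, edgeR adjusted p = 0.0403) and the neighbours of Iyd on chromosome 10, Plekhg1 (-0.51, edgeR adjusted p = 0.0454) and Ppp1r14c (0.81, edgeR adjusted p = 0.0476). With each of the 9 libraries left out in turn, these calls held 2, 2, 0 and 1 times in that order. Where a call ended, the edgeR adjusted p lay between 0.0533 (Plekhg1 without wild-type replicate 2) and 0.146 (Ppp1r14c without Arid2-labelled replicate 2). With the parathyroid covariate none of the 4 passed, at -0.90, 1.27, -0.55 and 0.76 (edgeR adjusted p = 0.211, 0.141, 0.168 and 0.228). With the GC trend removed Gm17140 (0.77, edgeR adjusted p = 0.122) and Ppp1r14c (0.69, edgeR adjusted p = 0.1003) did not pass.

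By Pearson correlation of log2 CPM over the 9 libraries, among 11924 genes, the genes most like Tshr were Sash1 (0.977), Nceh1 (0.971), Polr2g (0.968), Pdcd7 (0.968) and Ncbp1 (0.959). For Iyd they were Fam98a (0.968), Sumf1 (0.968), Ubash3b (0.960), Trappc2 (0.959) and Ormdl2 (0.958). For Tg they were Sun1 (0.898), Wasf3 (0.867), Eif2ak4 (0.844), Qars (0.835) and Tert (0.834). The points share library depth and tissue makeup, and the values are descriptions only.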

How the data were processed

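RNA came from flash-frozen mouse thyroids (TRIzol; libraries with Illumina's TruSeq RNA kit), as the labels' protocols state. The deposited values are raw whole-number read counts per gene; the build mm9 and the tools HTSeq 0.6.1, STAR 2.4 and DESeq2 are listed in the submitters' processing notes, with no role or order. Whether strand was used is not given in the sources used here. Groups follow the genotype labels; replicate numbers only name libraries.

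edgeR 4.0.16 (R 4.3.3; TMM, filterByExpr, quasi-likelihood F test) was run on all 9 libraries in 1 fit of 3 group means, with 6 residual degrees of freedom, and p-values were Benjamini-Hochberg adjusted over 17079 genes at a threshold of 0.05. Standard errors come from the fold and its F statistic. Lengths and GC content come from GENCODE transcripts (GRCm38), matched for 97.2% of tested genes; the build differs from mm9, and the count table gives no coordinates. Promoters come from RefSeq (GRCm38.p6). This fit was also run on simulated counts with known changes, drawn with the same dispersion for every gene. The simulation held no differences in tissue makeup, and no conclusion is drawn from it here.

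Alternatives were DESeq2 1.42.0, limma 3.58.1 voom, other scalings and filters, fits of the 6 libraries compared, a parathyroid covariate, GC trend removal (spline with 5 degrees of freedom), omitting both libraries with thymus markers, and leaving out each library. Counting intervals cover counting error only, since PCR copies cannot be told from separate molecules. No library is a copy of another, since the chi-square statistic per degree of freedom between replicates was 51.2 to 132. Genes named are the members, Arid2, Smarcb1, Pax8, Cdh16, genes of listed pathways past the threshold, up to 4 each by smallest p, the neighbours of members, and 5 genes most like each member. For TSH receptor signalling all 5 that passed are named, one more than this rule, and Slc5a5 was named after its values were seen. The members and lists were chosen with earlier results of these data known.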

Additional observations from a re-analysis of the deposited data

How the results depend on the processing

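Over 12 settings other than leaving out a library, the folds of Tg, Tshr and Iyd in 3 comparisons kept their direction and their side of the threshold in 102 of 108 cases. Here the comparisons are, in order, Arid2-labelled over wild type, Smarcb1-labelled over wild type and Smarcb1-labelled over Arid2-labelled. Tg in the first turned to 0.00030 with a parathyroid covariate and 0.011 without both libraries with thymus markers, and Iyd in the second to -0.12 with the GC trend removed. Tshr passed in the first at -0.55 with the 6 libraries compared, and in the third at 0.81 with the CPM filter and at 0.81 with DESeq2. The cause was not tested.

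Leaving out each library in turn gave Tg -0.14 to 0.11 in the first, -0.21 to 0.033 in the second and -0.20 to 0.056 in the third. It gave Tshr -0.037 to 0.52 in the second and 0.51 to 1.07 in the third, and Iyd -0.034 to 0.21 in the second.

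Genes called numbered 95, 1349 and 2779 in the 3 comparisons, in the same order. DESeq2 gave 918, 2782 and 4335, fits of the 6 libraries compared 201, 486 and 1348, and GC trend removal 239, 335 and 1038. The parathyroid covariate gave 197 in the second and 145 in the third, where it runs with the Smarcb1 label. Omitting both libraries with thymus markers gave 56 in the first and 2166 in the second. Single libraries left out gave 5 to 167, 344 to 2538 and 395 to 4411.

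Of the count ratios, Tg over Pax8 in the first turned to -0.49 with Cdh16 in place of Pax8, and Tshr over Iyd in the second to -0.075 without the libraries with thymus markers. With single libraries left out, Iyd over Pax8 in the first ranged from -0.16 to 0.088, Tg over Tshr in the second from -0.72 to 0.025 and Tshr over Iyd in the second from -0.075 to 0.31. No paired analysis was possible because the labels give no replicate numbers shared between groups.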
